A study of Mus musculus with 12 samples.

Results

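Stimulated transcript levels were compared between peritoneal macrophages of Nfkbiz-/- mice and of wild-type C57Bl/6 mice, both given lipopolysaccharide (LPS) at 1 µg/ml for 4 h. The comparison uses 3 arrays of each genotype, chosen by their sample titles, which is 6 of the 12 arrays in the series. The other 6 arrays hold untreated cells of both genotypes, 3 each, and serve here to show whether a difference was already there without LPS. All mice were female, of an age that the labels do not give. Cells were washed out of the abdominal cavity, left to attach in culture for 2 h and then stimulated, with no sort or gate named, and RNA was hybridised to 1-colour Affymetrix whole-transcript arrays. The labels describe the knockout by genotype alone. They name neither the deleted part of the gene nor the background strain, and no littermate controls. Whether replicates are separate mice is also unstated. Each p-value thus reflects the spread among 3 arrays per group, estimated over all 12 arrays, which could be technical.

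Nfkbiz encodes IκBζ, a nuclear member of the IκB family. It is itself switched on by LPS through Toll-like receptor 4 (TLR4) and NF-κB. Unlike the cytoplasmic IκB proteins, which hold NF-κB out of the nucleus, IκBζ binds NF-κB p50 on chromatin and is needed for a set of secondary response genes, among them cytokines, chemokines and the antimicrobial protein lipocalin-2. Stimulated macrophages also make type I interferon, which acts back on them to raise antiviral and antigen presentation genes.

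Promoters of 4 genes are shown because they stand for the classes of gene that the comparison turned on. Csf2 and Lcn2 had the largest losses, Il6 is a textbook IκBζ target whose level was not called different, and Ifit3b is an interferon-stimulated gene that was higher in the knockout. Each sequence is the 250 bases before the RefSeq start site in assembly GRCm38.p6, written 5′ to 3′ on the gene's strand. Capitals mark a match on either strand to a C/EBP motif (TTGCNNAA), an AP-1 motif (TGANTCA), an interferon-stimulated response element (ISRE, here GAAA, any 2 bases, GAAA) or the κB consensus. In Csf2, at chr11:54249900-54250149 on the minus strand, the capitals are a C/EBP match. In Lcn2, at chr2:32387740-32387989 on the minus strand, they are also a C/EBP match. In Il6, at chr5:30012864-30013113 on the plus strand, they are in order an AP-1, a C/EBP and a κB match. In Ifit3b, at chr19:34607707-34607956 on the plus strand, they are ISRE matches followed by an AP-1 match. These matches are letters in a window and not measured binding sites.
Csf2: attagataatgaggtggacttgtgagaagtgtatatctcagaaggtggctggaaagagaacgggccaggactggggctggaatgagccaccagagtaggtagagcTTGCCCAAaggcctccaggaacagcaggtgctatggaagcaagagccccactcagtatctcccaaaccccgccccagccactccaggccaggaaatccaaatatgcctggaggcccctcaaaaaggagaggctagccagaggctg
Lcn2: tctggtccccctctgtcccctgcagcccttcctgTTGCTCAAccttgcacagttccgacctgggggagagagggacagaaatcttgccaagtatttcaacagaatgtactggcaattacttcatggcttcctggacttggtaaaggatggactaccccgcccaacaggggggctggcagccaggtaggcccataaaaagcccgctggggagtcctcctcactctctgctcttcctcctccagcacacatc
Il6: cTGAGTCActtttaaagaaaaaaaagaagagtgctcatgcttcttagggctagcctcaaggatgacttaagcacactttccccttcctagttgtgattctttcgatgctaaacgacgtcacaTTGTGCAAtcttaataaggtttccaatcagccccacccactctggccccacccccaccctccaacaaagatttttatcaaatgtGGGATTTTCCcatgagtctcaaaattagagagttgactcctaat
Ifit3b: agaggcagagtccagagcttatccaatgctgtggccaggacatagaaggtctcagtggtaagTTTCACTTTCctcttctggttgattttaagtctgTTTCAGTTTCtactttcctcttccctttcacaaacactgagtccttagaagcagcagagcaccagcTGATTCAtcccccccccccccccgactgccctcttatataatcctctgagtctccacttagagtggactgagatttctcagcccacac

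Nfkbiz, the targeted gene, was checked first. Its intensity was 3371, 3786 and 3079 in wild type with LPS and 1568, 1335 and 1634 in the knockout, a difference of -1.17 ± 0.10 (log2, SE; adjusted p = 7.23e-05). In untreated cells Nfkbiz was at 406.3 to 462.6 in wild type and 266.9 to 285.6 in the knockout (-0.65, adjusted p = 0.0401 in limma). With LPS it rose by 2.97 log2 units in wild type and by 2.45 in the knockout. Its signal thus remained in the knockout, and since the labels do not place the deletion relative to the probe set, the value does not check the deletion itself. The 8 macrophage markers averaged 12.03 to 12.42 on the log2 scale in wild type with LPS and 12.26 to 12.58 in the knockout, and 1 was called higher and 1 lower. The lower call, of Adgre1, was lost without wild-type replicate 1, wild-type replicate 3 or knockout replicate 1. Markers of large peritoneal macrophages averaged 10.61 to 10.74 and 10.9 to 10.97, so every knockout array was above every wild-type array. Of 7 measured, 1 was called higher, though not without wild-type replicate 1, and none lower. In untreated cells they averaged 10.34 to 10.46 in wild type and 10.65 to 11.04 in the knockout. In the 8 lists of markers of other cells, 1 T cell marker was called higher and 1 stromal marker lower, neither of them without wild-type replicate 1. Mast cell markers were highest in knockout replicate 3, at a mean log2 of 8.05 against 6.43 and 7.36 in the other knockout arrays and 6.42 to 6.95 in wild type, and none of the 6 was called. In such a culture of mixed cells, fewer cells of a type and less RNA per cell cannot be told apart. Some arrays stood apart. Wild-type replicate 2 was high and wild-type replicate 3 low for interferon-stimulated genes, and knockout replicate 2 was low for a number of induced genes, as given below beside each group.

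Across 19938 genes, 1623 differed with LPS at an adjusted p under 0.05 (8.14% of those tested), of which 970 were lower in the knockout (4.87%) and 653 higher (3.28%). Most differences were small. The median called gene was 0.54 log2 units lower or 0.67 higher, where 1 unit is 2-fold, and the median of all genes was -0.009. At least 2-fold differences were called for 275 genes (1.38%), with 124 lower (0.622%) and 151 higher (0.757%), and at least 4-fold for 23 and 24. Over all genes, called or not, 14.2% lay wholly lower and 10.3% wholly higher on the knockout arrays. The split of directions depended on the scaling. Higher genes made up 40.2% of calls in the deposited values, 45.9% after quantile normalization and 52.6% (869 higher, 783 lower) after centring on the 75th percentile, which moved the median of all genes to 0.048. The number of calls also rested on single arrays. It was 712 without wild-type replicate 3, 754 without wild-type replicate 1 and 1076 without knockout replicate 3, with 219, 213 and 234 of the 275 genes past 2-fold still called.

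**Figure D1:**
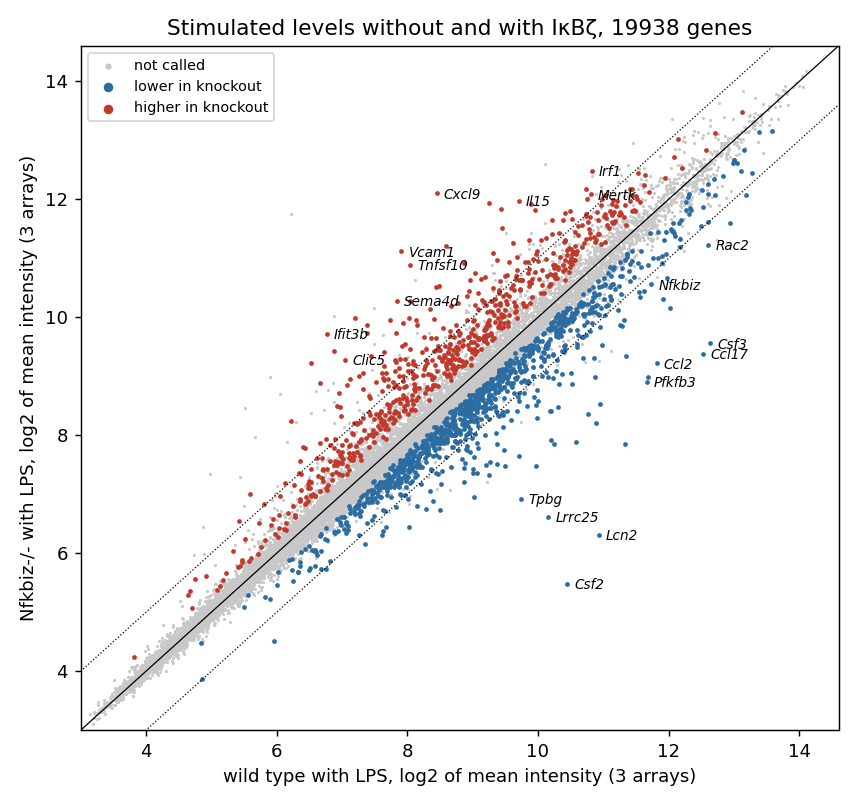
Log2 of mean intensity in Nfkbiz-/- macrophages with LPS (vertical axis) against wild-type macrophages with LPS (horizontal axis), 3 arrays each, 1 point per gene for 19938 genes; the solid line is equality and the dotted lines are 2-fold. The 970 blue points were called lower and the 653 red points higher in the knockout, with Csf2 and Lcn2 farthest below the line and Cxcl9 among the farthest above it.

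The largest loss was that of Csf2, which encodes GM-CSF, the cytokine that drives the growth and activation of granulocytes and macrophages. Wild-type arrays read 1390, 1269 and 1531, and knockout arrays 38.5, 43.3 and 52.2. The knockout values lay close to those of untreated wild-type cells, at 34.7 to 37.1. The difference was -4.97 ± 0.11 (31.4-fold lower; adjusted p = 3.15e-10, the lowest of all genes). Csf3 encodes G-CSF, which mobilises neutrophils. Its wild-type intensities were 6222, 7082 and 5704 and its knockout intensities 607.4, 132.6 and 1525, a difference of -3.67 ± 0.61 (adjusted p = 0.00463). The knockout arrays spread widely, replicate 2 being lowest, and the call was lost when only the 6 LPS arrays were fitted. Over the list of colony-stimulating and growth factors, 4 of 17 measured genes were lower and 1 was higher, with a median of -0.20 that was -0.06 without knockout replicate 2. With only the 6 LPS arrays, 2 were lower. Edn1, which encodes the vasoconstrictor endothelin-1, was lower by -1.92 ± 0.22 (adjusted p = 0.000484). Bmp2, a ligand of the TGF-β superfamily, went the other way: 274.3, 300.6 and 211 in wild type and 804, 1219 and 1009 in the knockout (1.94 ± 0.18, adjusted p = 0.000133).

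Lipocalin-2 (Lcn2), which starves bacteria of iron by binding their siderophores, came next. Intensities were 1802, 2151 and 1902 in wild type and 67.5, 96.3 and 74.7 in the knockout, with no overlap and a difference of -4.63 ± 0.25 (24.8-fold lower; adjusted p = 3.43e-06). Untreated knockout cells were at 66.9 to 72.9, close to the knockout with LPS, and untreated wild-type cells at 109.1 to 266.5. Slc11a2 encodes DMT1, which carries iron and other divalent metals across membranes. It was at 1542, 1369 and 1667 in wild type and 221.9, 300.9 and 186.2 in the knockout (-2.71 ± 0.17, adjusted p = 8.31e-06). Of 14 measured iron genes, 2 were lower and 1 was higher, and without wild-type replicate 1 or 3 these became 1 and 0. That higher gene was the iron exporter Slc40a1 (1.95, adjusted p = 0.0158), and its call was lost without wild-type replicate 1 (2.01) or wild-type replicate 3 (1.96).

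Of 14 measured CC chemokines, 3 were lower and none was higher, with a median of -0.28 that was -0.17 without knockout replicate 1. In untreated cells the list median was -0.70. Ccl2, named in the title of the series, encodes the monocyte chemoattractant MCP-1. Its wild-type intensities were 2734, 5304 and 2789 and its knockout intensities 265.9, 500.5 and 1022, which did not overlap (-2.74 ± 0.53, 6.67-fold lower; adjusted p = 0.00982). Leaving out wild-type replicate 3 and knockout replicate 2 together gave an adjusted p of 0.0501 for Ccl2. Ccl7, a related monocyte attractant, was at 1708, 4457 and 1570 against 158.3, 185.8 and 347.7 (-3.40 ± 0.39, adjusted p = 0.000567). Ccl17, a ligand of CCR4 on T cells, was at 4509, 4788 and 8454 against 1004, 269.1 and 723.4 (-3.29 ± 0.57, adjusted p = 0.00537). Each of these had no overlap between genotypes. Ccl22, the other CCR4 ligand, had a difference of -1.25 (adjusted p = 0.133), with knockout replicate 2 at 974 against 3113 and 2622. Without LPS, Ccl2 was at 869.2, 291.1 and 544.3 in wild type and 120.8, 142.1 and 313.7 in the knockout. That untreated difference of -1.56 was not called (adjusted p = 0.442).

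CXC chemokines moved in both directions. Cxcl5 and Ppbp, ligands of CXCR2 that attract neutrophils, were lower. Cxcl5 was at 1779, 1687 and 2217 in wild type and 259.8, 261.9 and 367.9 in the knockout (-2.68 ± 0.21, adjusted p = 4.33e-05). Ppbp was at 835.5, 739.4 and 949.6 against 207.4, 173.3 and 219.2 (-2.07 ± 0.20, adjusted p = 0.000175). In contrast, Cxcl9, an interferon-γ-inducible ligand of CXCR3, had the largest rise of all named genes. Wild-type intensities were 193.2, 753.1 and 101.5 and knockout intensities 3171, 4801 and 5244, so every knockout array was above every wild-type array (4.13 ± 0.54, 17.5-fold higher; adjusted p = 0.00113). Cxcl10, which binds the same receptor, was already bright in wild type (9764, 14080 and 3191) and was not called (0.94, adjusted p = 0.364). Of 13 measured CXC chemokines, 4 were lower and 2 higher, with a median of -0.14 (-0.06 without knockout replicate 2, -0.25 without knockout replicate 1). Without wild-type replicate 1, wild-type replicate 3 or knockout replicate 2, 2 were lower. In untreated cells 4 of the list were already called lower and none higher, against 0.0752% of all genes called in either direction, with a list median of 0.06. Cxcl5, Ppbp and Cxcl3 were among those 4. Cxcl3 differed by -1.84 untreated (adjusted p = 0.00475) and by -0.85 with LPS (adjusted p = 0.0243), the latter call being lost without wild-type replicate 1 or 3.

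A list of 7 textbook IκBζ targets was measured in full, and 6 were called lower, against 4.87% of all genes. The list median of -1.92 stayed between -2.03 and -1.78 when any of the 6 arrays was left out. All 7 had lower values on every knockout array than on any wild-type array, against 14.2% of all genes. Besides Csf2, Lcn2, Csf3 and Edn1, they were Il12b, Cebpd and Il6. Il12b encodes the p40 subunit shared by interleukin-12 and interleukin-23, and was at 434.1, 598.1 and 464.4 against 222.9, 206.2 and 203.4 (-1.23 ± 0.15, adjusted p = 0.000669). Cebpd encodes a C/EBP transcription factor of the acute response and differed by -0.94 ± 0.11 (adjusted p = 0.000627). Il6 reached 11196, 12087 and 10081 in wild type and 7572, 4514 and 9119 in the knockout. Its values did not overlap, but the difference of -0.71 ± 0.34 missed the threshold (adjusted p = 0.248). Over untreated cells Il6 was 6.80 log2 units higher in wild type and 6.73 in the knockout.

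Among 20 interleukins and interferons, 5 were lower and 2 higher, against 2 and 0 with only the 6 LPS arrays. Il19, of the interleukin-10 family, was at 192.1, 258.9 and 133.2 in wild type and 72 to 86.6 in the knockout (-1.25 ± 0.19, adjusted p = 0.00251). Lif, a relative of interleukin-6, was at 4092, 4381 and 3978 against 1332, 435.9 and 1655 (-2.07 ± 0.36, adjusted p = 0.00566), and its call was lost with only the 6 LPS arrays fitted. Il15, which sustains natural killer and memory T cells, was higher: 3017, 4683 and 4372 in the knockout against 503.1, 1802 and 195.3 (2.82 ± 0.61, adjusted p = 0.0159). Without wild-type replicate 1 the Il15 difference was 2.74 and no longer called. Its presenting receptor chain Il15ra was at 3305, 3296 and 4267 against 686.7, 1832 and 456.8 (2.11 ± 0.40, adjusted p = 0.00849). In both genes wild-type replicate 2 was the nearest to the knockout, and neither was called with only the 6 LPS arrays fitted. Of 26 measured cytokine receptors, 3 were lower and Il15ra was the 1 higher. The lower ones included Il4ra, shared by the interleukin-4 and interleukin-13 receptors, whose intensities were tightly grouped at 2948 to 3032 in wild type and 1346 to 1412 in the knockout (-1.11 ± 0.19, adjusted p = 0.00571).

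**Figure D2:**
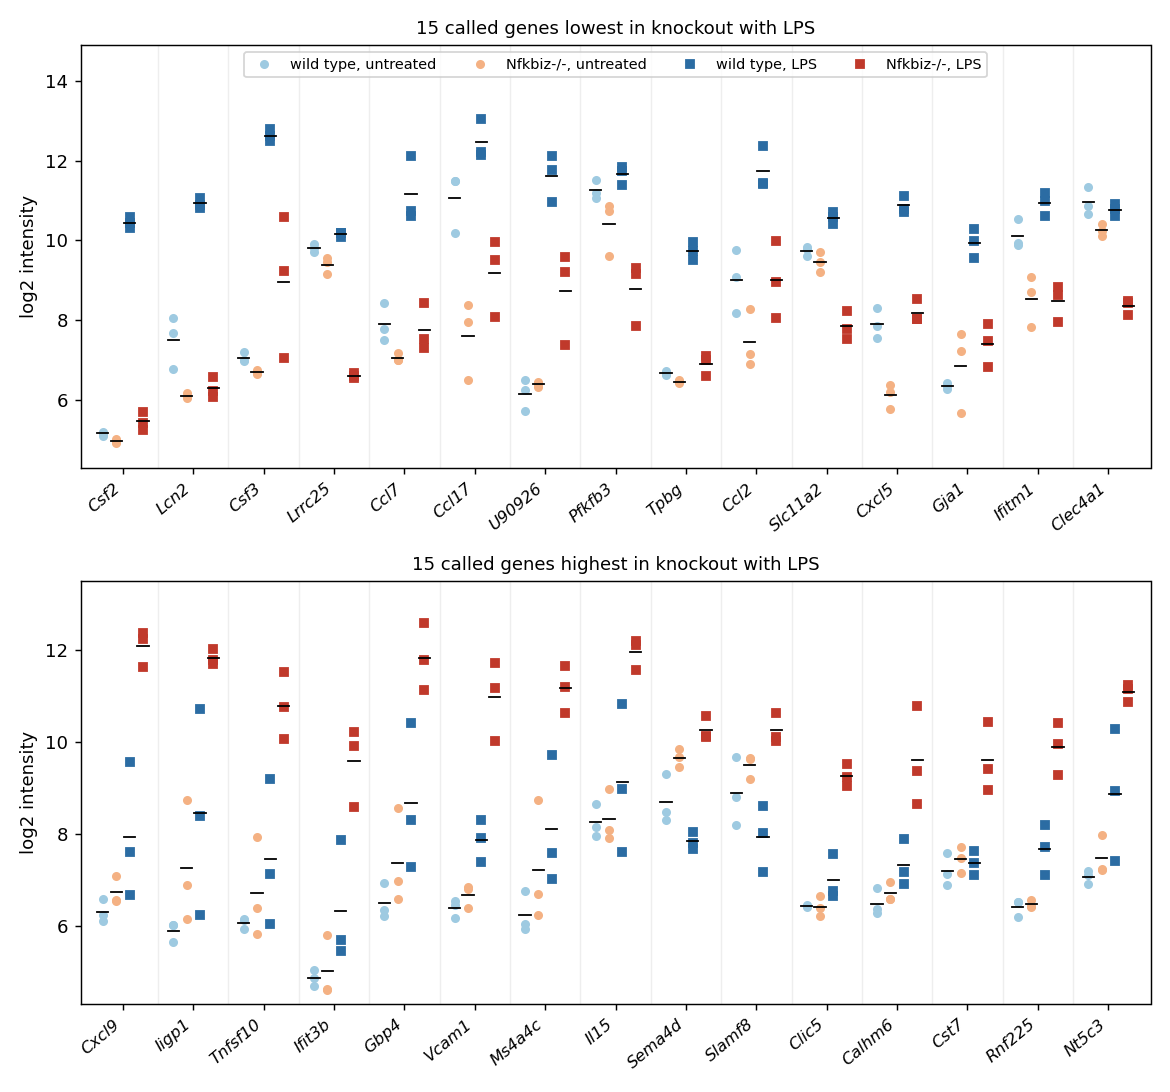
Log2 intensity on each of the 12 arrays (points, 4 groups of 3; bars are group means) for the 15 called genes with the largest negative (top) and the 15 with the largest positive (bottom) difference with LPS, passing over the classes left out by the naming rule. Csf2 and Lcn2 in knockout cells with LPS sit near the untreated level; in the lower panel the wild-type LPS points of Cxcl9, Iigp1 and Tnfsf10 spread widely, with replicate 2 nearest to the knockout.

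Several of the most strongly lowered genes encode surface proteins, although other surface proteins described below were higher. Lrrc25, a leucine-rich repeat membrane protein of leukocytes, was at 1090, 1160 and 1173 in wild type and 102.8, 94.2 and 97 in the knockout (-3.54 ± 0.10, adjusted p = 4.39e-09). Untreated knockout cells were at 710.2, 569.7 and 749.8, so the change with LPS was -2.78 log2 units in the knockout against 0.34 in wild type. Tpbg, the 5T4 trophoblast glycoprotein, was at 858.6, 989.5 and 725.1 against 129.2, 96.7 and 138.3 (-2.83 ± 0.13, adjusted p = 9.64e-07). Clec4a1, a C-type lectin, differed by -2.41 ± 0.16 (adjusted p = 1.44e-05). Gja1, the gap junction protein connexin 43, was at 751.2 to 1239 against 113.2 to 240.8 (-2.53 ± 0.42, adjusted p = 0.0046). Ifitm1, of the interferon-induced transmembrane family, was lower (-2.45 ± 0.32, adjusted p = 0.00108), and a further probe set of the gene gave -2.46. Ifitm1 thus differed in the direction opposite to the antiviral genes described below. The mannose receptor Mrc1, a marker of alternatively activated macrophages, was at 547.4, 600.3 and 706.8 against 200.7, 124.8 and 234.4 (-1.77 ± 0.22, adjusted p = 0.000939).

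Among the genes with the lowest p-values were some for intracellular proteins. Rac2, a small GTPase of blood cells that serves the NADPH oxidase, was bright and tightly grouped, at 5932 to 6682 in wild type and 2247 to 2527 in the knockout (-1.38 ± 0.08, adjusted p = 3.43e-06). Sh3bp5, an SH3-domain-binding protein, was at 1185, 1017 and 1434 against 217.9, 243.8 and 233 (-2.38 ± 0.13, adjusted p = 3.43e-06). P4ha2, a collagen prolyl 4-hydroxylase subunit, and E2f5, an E2F transcription factor, were lower by -2.01 ± 0.13 and -1.58 ± 0.10. U90926, a long noncoding RNA by the RefSeq table, was at 3444, 4434 and 1982 against 591.5, 167.6 and 766.5 (-2.88 ± 0.47, adjusted p = 0.00413), a call lost with only the 6 LPS arrays fitted. Of 20 cell cycle genes, Tyms, thymidylate synthase, was lower (-1.36 ± 0.14, adjusted p = 0.000304) and Ccne1, cyclin E1, higher (1.70 ± 0.22, adjusted p = 0.00123).

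Feedback inhibitors moved in both directions. Irak3, which encodes the kinase-dead inhibitor IRAK-M of Toll-like receptor signalling, was at 6080, 5924 and 6747 in wild type and 3596, 2811 and 3039 in the knockout (-0.99 ± 0.10, adjusted p = 0.000172). Over the list of SOCS proteins, the interleukin-10 axis and signalling inhibitors, it was the 1 gene lower of 19 measured, while 3 were higher. Of all genes, 4.87% were lower and 3.28% higher. Without knockout replicate 3 the counts of this list were 3 lower and 2 higher, and with only the 6 LPS arrays 1 and 1. The list median of -0.20 was 0 without knockout replicate 2 and -0.35 without knockout replicate 3. Among 17 measured genes of the IκB and NF-κB family and its feedback, 2 were lower and 2 higher. Besides Nfkbiz, the lower gene was Tnip3, an A20-binding inhibitor (-1.5 ± 0.23, adjusted p = 0.00291). The higher genes were Nfkbid, which encodes the nuclear relative IκBNS (1962, 1724 and 2443 against 1061, 1199 and 1097; 0.86, adjusted p = 0.00848), and Nfkbie, which encodes IκBε (0.57, adjusted p = 0.00905). Batf, a basic leucine zipper factor that pairs with JUN proteins, was lower (-1.20 ± 0.13, adjusted p = 0.000437).

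Glycolytic and sterol genes were lower in larger shares than the 4.87% of all genes. Of 18 measured glycolysis and hypoxia genes, 9 were lower and 1 higher, with a median of -0.37 that ranged from -0.47 without knockout replicate 3 to -0.26 without knockout replicate 2. Lower genes numbered 4 when wild-type replicate 3 was left out, 6 when wild-type replicate 1 was, and 1 with only the 6 LPS arrays. In untreated cells the median was -0.17. Pfkfb3, whose product makes the main activator of phosphofructokinase, was at 2670, 3412 and 3646 in wild type and 636, 232.5 and 571.1 in the knockout (-2.87 ± 0.38, adjusted p = 0.00123). Knockout replicate 2 was again the lowest. The hypoxia-inducible prolyl hydroxylase Egln3 (-1.69, adjusted p = 0.00637) and the liver-type phosphofructokinase Pfkl (-0.73, adjusted p = 0.00505) were called in the fit to all arrays but not with only the 6 LPS arrays. The mitophagy receptor Bnip3 (-1.30, adjusted p = 0.0182) lost its call without wild-type replicate 1 (-1.34) or wild-type replicate 3 (-1.22).

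In sterol synthesis, 10 of 19 measured genes were lower and none was higher, with a median of -0.36 (range -0.49 without knockout replicate 3 to -0.27 without knockout replicate 2). Leaving out wild-type replicate 3 gave 4 lower genes, leaving out wild-type replicate 1 or knockout replicate 2 gave 5, and the 6 LPS arrays alone gave 2. Without LPS the same list had a median of -0.01. Sqle, squalene epoxidase, was at 741.9, 637.1 and 1120 in wild type and 395.9, 330.2 and 416.5 in the knockout (-1.09 ± 0.19, adjusted p = 0.00569). Msmo1, a methylsterol oxidase, was at 2095, 1987 and 2235 against 1311, 921.7 and 1278 (-0.86 ± 0.13, adjusted p = 0.00248). Lss, lanosterol synthase (-0.99, adjusted p = 0.00898), and Mvd, of the mevalonate pathway (-0.84, adjusted p = 0.00736), lost their calls with only the 6 LPS arrays fitted. Mylip, the LXR-induced ligase that degrades the LDL receptor, was also lower (-1.19 ± 0.15, adjusted p = 0.000908). Me1, malic enzyme, which supplies NADPH for lipid synthesis, was higher: 498, 611.3 and 633.4 against 187.9, 172.3 and 238.8 (1.55 ± 0.14, adjusted p = 0.000145). As lists of general cell function, the respiratory chain had 0 of 20 called by limma. At an unadjusted p under 0.05 in limma it had 1 of 20, against 4385 of all 19938 genes. The constitutive proteasome had 1 lower of 19 and the lysosome 1 lower of 19, with medians of -0.14 and -0.01.

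**Figure D3:**
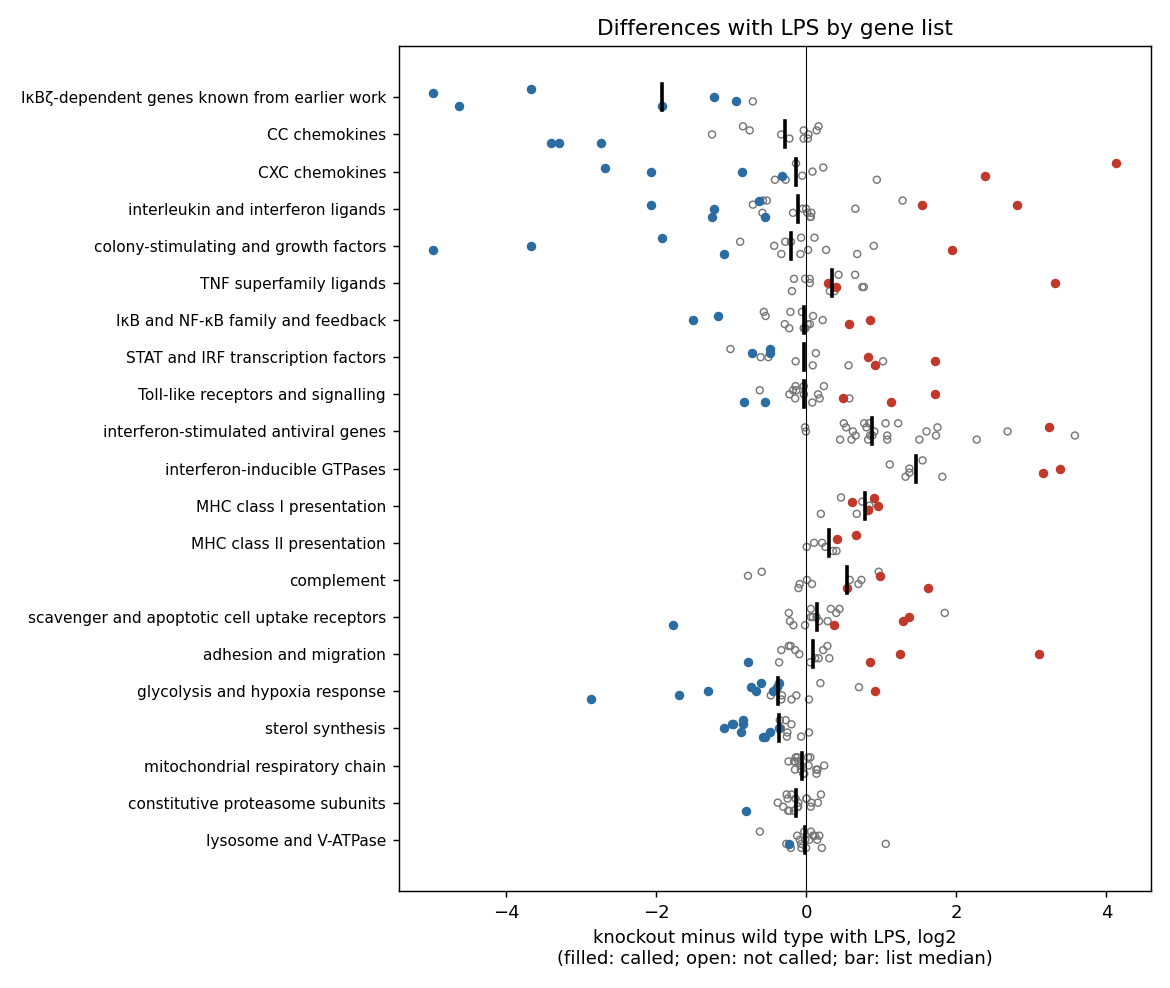
Difference with LPS (knockout minus wild type, log2, horizontal axis) of each measured member of 21 gene lists (points; filled where called, open where not; bars are list medians). The IκBζ-dependent list has a median of -1.92 and the glycolysis and sterol lists have medians of -0.37 and -0.36, while members of the interferon and MHC class I lists lie to the right of 0, mostly as open points.

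Most interferon-stimulated genes had higher means in the knockout, but few passed the test. Of 27 measured antiviral genes, 25 had a positive difference with a median of 0.88, and 1 was called against 3.28% of all genes called higher. On 13 of them every knockout array was above every wild-type array, against 10.3% of all genes. The called gene was Ifit3b, a member of the IFIT family, at 385.9, 966.4 and 1178 in the knockout and 43.7, 232.1 and 51.4 in wild type (3.24 ± 0.59, adjusted p = 0.0074), and it was not called with only the 6 LPS arrays. Its relative Ifit2, a translation inhibitor, had a larger mean difference of 3.58 and was not called (adjusted p = 0.0568). Ifit2 was at 620.9, 2604 and 82.3 in wild type and 4962, 5768 and 7964 in the knockout.

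The spread lay in the wild-type arrays. The mean log2 intensity of the antiviral list was 10.94, 11.74 and 9.55 in wild type and 11.83, 11.89 and 12.08 in the knockout, so wild-type replicate 2 came close to the knockout and replicate 3 was far below. Without replicate 3 the list median was 0.39 in place of 0.88, with 1 gene called, and without replicate 2 it was 1.28, with 9 called. In untreated cells the list median was 0.67, with none called, and knockout replicate 3 was the highest array there, at 10.17. Interferon-inducible GTPases, which attack the vacuoles of intracellular microbes, showed the same order of the wild-type arrays, at 9.67, 10.84 and 8.43 against 11.45, 11.27 and 11.87 in the knockout. Of 8 measured, 2 were called higher, with a list median of 1.46 (0.58 untreated). That became 1.03 with 0 called without wild-type replicate 3, and 1.84 with 7 called without wild-type replicate 2. None was called without wild-type replicate 1 or knockout replicate 3 either. On all arrays 7 of the 8 had an unadjusted p under 0.05 in limma, against 4385 of all 19938 genes. The 2 called genes were Iigp1 (3.38, adjusted p = 0.0397) and Gbp4 (3.16, adjusted p = 0.0192). Iigp1 was at 336.3, 1671 and 75.1 in wild type and 3291, 3492 and 4128 in the knockout, and its call was kept only when the array left out was wild-type replicate 2. Without wild-type replicate 3 the differences were 2.27 for Iigp1 and 2.46 for Gbp4, neither of them called, and Gbp4 was also lost without wild-type replicate 1 (2.98) or knockout replicate 3 (2.78). Tnfsf10, the death ligand TRAIL, behaved likewise, with 139.2, 584.9 and 65.8 against 1059, 1715 and 2919 (3.32, adjusted p = 0.0152) and 2.61, 3.15 or 2.94 without wild-type replicate 3, wild-type replicate 1 or knockout replicate 3. Ms4a4c, of the MS4A family of membrane proteins (3.05, adjusted p = 0.0217) lost its call without any of those same arrays, and the nucleotidase Nt5c3 (2.21, adjusted p = 0.0247) without wild-type replicate 1 (2.24), knockout replicate 2 (2.18) or knockout replicate 3 (2.13).

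Of 14 measured STAT and IRF transcription factors, 3 were higher and 3 lower, with a median of -0.03. Irf1, which drives interferon-γ target genes, was at 1671, 2638 and 1131 in wild type and 4543, 7170 and 5455 in the knockout (1.72 ± 0.27, adjusted p = 0.00303), and a dimmer probe set gave 0.99 (adjusted p = 0.00659). Irf5, an activator of inflammatory cytokine genes, was at 1473, 2064 and 1356 against 2737, 3148 and 3188 (0.91 ± 0.15, adjusted p = 0.00421). Irf7, the amplifier of type I interferon, was at 4692, 8027 and 1643 against 7467, 7266 and 9618, which overlapped, and was not called (1.03, adjusted p = 0.328). Irf4, a factor of dendritic and alternatively activated cells, was at 374.3, 473.9 and 649.6 against 364.5, 119.8 and 324.2 (-1.01, adjusted p = 0.116). Of 10 measured MHC class I presentation genes, 4 were higher and none lower, with a median of 0.79 that was 0.46 without wild-type replicate 3 and 0.36 in untreated cells. Without wild-type replicate 1, wild-type replicate 3 or knockout replicate 3, 1 was called, without wild-type replicate 2, 9 were, and with only the 6 LPS arrays, 0. The peptide-trimming enzyme Erap1, for example, was at 533, 594.4 and 541.4 against 278.4, 396.7 and 239.8 (0.90, adjusted p = 0.00586), a call lost with only the 6 LPS arrays. Of 8 measured MHC class II presentation genes, 2 were higher (1 without wild-type replicate 1 or 3), with a median of 0.31 (0.19 without knockout replicate 1, 0.47 without knockout replicate 2), and Cd74, the invariant chain, was not called (0.40, adjusted p = 0.334).

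**Figure D4:**
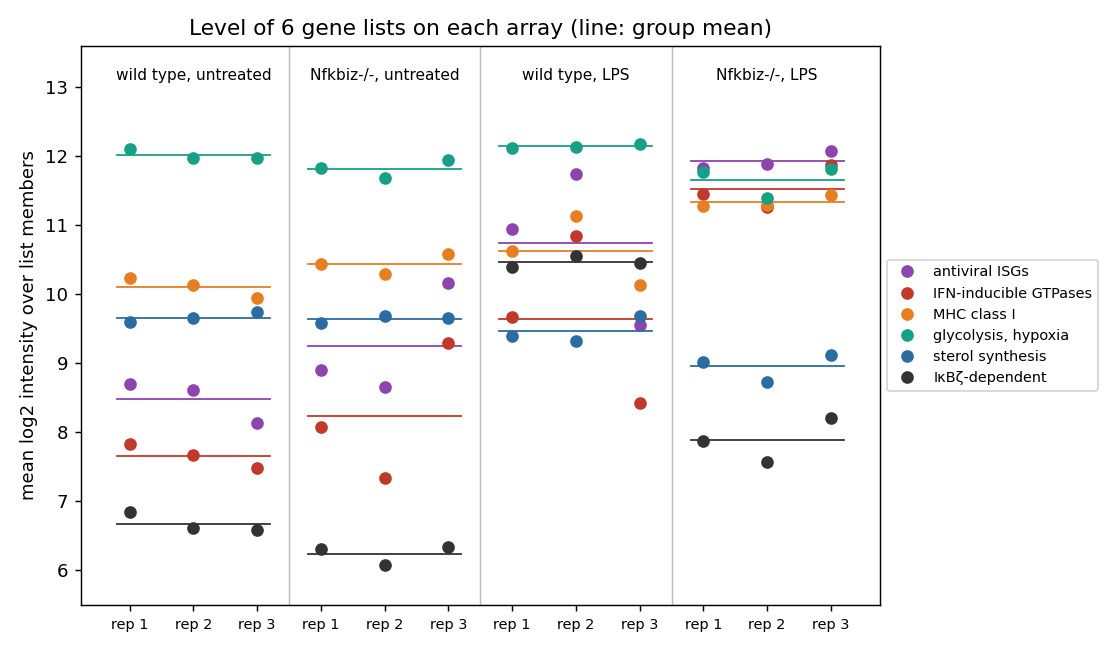
Mean log2 intensity over the measured members of 6 gene lists (colours) on each of the 12 arrays, with lines for group means. The antiviral list reaches 11.83 to 12.08 on the knockout LPS arrays and 9.55 to 11.74 on the wild-type LPS arrays, where replicate 3 is lowest; knockout untreated replicate 3 stands at 10.17 against 8.91 and 8.66 in its group.

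Other genes rose with less spread among the wild-type arrays than Iigp1 or Tnfsf10. In several of them wild-type replicate 2 was still the highest and replicate 3 the lowest, as in Vcam1 and Slamf8. Vcam1, the adhesion molecule that binds the integrin VLA-4, was at 239.2, 314.9 and 167 in wild type and 2303, 1039 and 3332 in the knockout (3.10 ± 0.35, adjusted p = 0.000517). Itga4, the α4 chain of that integrin, was higher as well, at 3964, 4874 and 3507 against 1888, 1880 and 1404 (1.26 ± 0.20, adjusted p = 0.00373). Of 16 adhesion genes, 3 were higher and 1 lower. Slamf8, a SLAM family receptor of myeloid cells, was at 1030, 1094 and 1589 against 257.2, 388.3 and 144.5 (2.32 ± 0.38, adjusted p = 0.00446). Sema4d, a transmembrane semaphorin, was at 1118, 1514 and 1099 against 221.9, 263.3 and 203.9 (2.43 ± 0.23, adjusted p = 0.000145), but a dimmer probe set of this gene gave 0.16 (adjusted p = 0.391), so its probe sets disagreed.

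Clic5, a chloride intracellular channel protein, was at 525.9, 735.8 and 598.3 in the knockout and 107.7, 190.1 and 100.4 in wild type (2.27 ± 0.21, adjusted p = 0.000145). Cst7, the cathepsin inhibitor cystatin F, was at 681.9, 1384 and 493.4 against 196.6, 165.7 and 136.9 (2.24 ± 0.32, adjusted p = 0.00179). Rnf225, a RING finger protein, was higher by 2.21 ± 0.29 (adjusted p = 0.00108). Calhm6, a calcium homeostasis modulator, was higher by 2.27 ± 0.43 (adjusted p = 0.00861), with knockout replicate 2 at 1751 against 401.1 and 654.6, and was not called with only the 6 LPS arrays. Plau, the urokinase plasminogen activator, was at 1803, 1200 and 2825 against 430.4, 485.5 and 489.4 (1.97 ± 0.28, adjusted p = 0.00169). Of 19 matrix protease and inhibitor genes, 2 were higher and 1 lower, against 1 and 0 without wild-type replicate 1 or 3.

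Scavenger and apoptotic cell uptake receptors included higher and lower genes. Mertk, a receptor kinase for apoptotic cell uptake, was at 4046, 4704 and 4302 in the knockout and 1511, 2088 and 1780 in wild type (1.29 ± 0.11, adjusted p = 0.000103). Against untreated cells its level changed by -0.69 in wild type and by 0.58 in the knockout. Its relative Axl was at 3227, 2975 and 4291 against 1346, 1722 and 1041 (1.36, adjusted p = 0.0115), and was not called without wild-type replicate 3 (1.18). Over 18 scavenger and uptake receptors, 3 were higher and Mrc1 was the 1 lower, with a median of 0.15. Without wild-type replicate 3, 1 was higher and the median was 0.03. Among 19 immediate-early genes, 3 were higher and 2 lower, with 6 higher without knockout replicate 2. Klf4, a zinc finger factor of monocyte differentiation, was at 440.2, 668.4 and 533.5 against 190.1, 274.5 and 211.9 (1.28 ± 0.17, adjusted p = 0.00142). Slc7a7, a cationic amino acid transporter, was at 1684, 1593 and 1698 against 784.2, 868.6 and 784.8 (1.03 ± 0.10, adjusted p = 0.000145).

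Some genes with large mean differences were far lower on knockout replicate 2 than on the other knockout arrays and were not called. Arg1, arginase 1, was at 6798, 6974 and 6848 in wild type and 3150, 387.1 and 4040 in the knockout (-2.01, adjusted p = 0.179). Trem1, a receptor that amplifies inflammation, was at 3081, 3437 and 3301 against 3769, 196.2 and 3336 (-1.28, adjusted p = 0.513). Ccr7, the lymph node homing receptor, was at 2944, 3661 and 4202 against 2580, 494.9 and 1863 (-1.42, adjusted p = 0.113). Knockout replicate 2 was low for Arg1 without LPS too, at 1215 against 7377 and 9063.

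Little of the difference was called without LPS. Only 15 genes differed between genotypes in untreated cells (0.0752%), and 12 of them were also called with LPS, all 12 in the same direction. The untreated comparison uses none of the 6 LPS arrays, although the spread was estimated over all 12. Of the 275 genes called at least 2-fold with LPS, 234 (85.1%) had the same sign without it, against 56.3% of all genes. Their untreated differences were mostly small, with medians of -0.27 for the lower and 0.23 for the higher genes, and 11 lower and 6 higher genes were at least 2-fold apart in the same direction before LPS. The clearest were Ppbp (-2.49 untreated, adjusted p = 0.000939), Cxcl5 (-1.78, adjusted p = 0.00785), Mrc1 (-1.67, adjusted p = 0.022), Me1 (1.70, adjusted p = 0.000939) and the acute-phase protein Orm1 (1.31, adjusted p = 0.00785; with LPS 1.29, adjusted p = 0.000773). Aldh1a2, a retinoic acid synthesis enzyme, was lower untreated (-2.26, adjusted p = 0.0441) and with LPS (-1.67, adjusted p = 0.0131; -1.38 and not called without wild-type replicate 3). Ccl17 had a similar untreated difference of -3.44 that was not called (adjusted p = 0.0656), with knockout intensities of 250.2, 91 and 331.8 against 2861, 1171 and 2854.

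**Figure D5:**
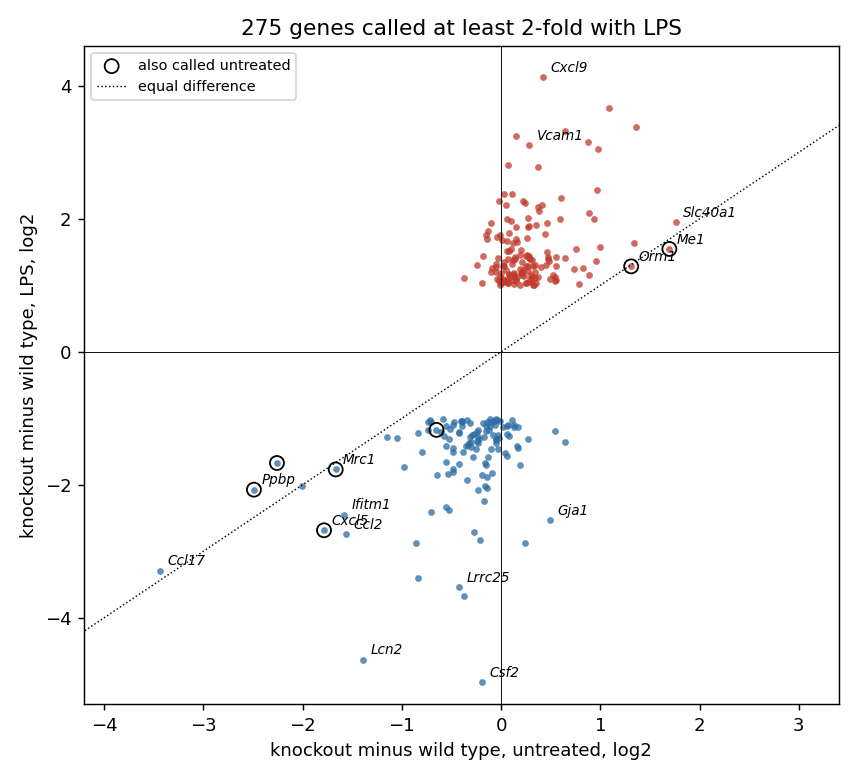
Difference between knockout and wild type with LPS (vertical axis, log2) against the same difference in untreated cells (horizontal axis, log2) for the 275 genes called at least 2-fold with LPS; circles mark genes also called untreated and the dotted line is equality. Ppbp, Mrc1, Me1 and Orm1 lie near the line, while Csf2 (-4.97 with LPS, -0.19 untreated) and Cxcl9 (4.13 and 0.42) lie near the vertical axis.

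The change of the genotype difference with LPS was tested as the interaction of genotype and treatment, which was called for 149 genes (0.747%; 89 negative, 60 positive). Csf2 had the largest, at -4.78 ± 0.15 (adjusted p = 2.62e-08), since wild type rose by 5.27 and the knockout by 0.49 log2 units. Lrrc25 followed by p-value (-3.12 ± 0.14, adjusted p = 9.61e-07). Tpbg (-2.61, adjusted p = 0.000109), Lcn2 (-3.24, adjusted p = 0.00262), Slc11a2 (-2.44, adjusted p = 0.00131) and Rac2 (-1.32, adjusted p = 0.000334) were also called. On the positive side were Clic5 (2.29, adjusted p = 0.00618), Bmp2 (2.05, adjusted p = 0.00501) and Mertk (1.27, adjusted p = 0.0053). All of these kept the call when any 1 of the 12 arrays was left out. For Cxcl9 the interaction was 3.71 ± 0.76 (adjusted p = 0.053) and for Ccl2 -1.18 ± 0.75 (adjusted p = 0.552). For Ccl17 (0.15, adjusted p = 0.965) and Ppbp (0.42, adjusted p = 0.583) it was small beside the genotype difference.

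Promoter letters were counted in the 250 bases before each RefSeq start, with 105 of the 124 genes at least 2-fold lower, 114 of the 151 higher and 15614 of all 19938 genes having a window. The ISRE letters occurred in 5.68% of windows of the higher genes, 2.38% of the lower and 2.86% of all genes tested. The κB consensus occurred in 6.82%, 4.76% and 4.33%, and the GAS motif (TTCNNNGAA) of STAT factors in 7.39%, 8.73% and 6.55%. For the C/EBP letters the shares were 9.09%, 8.73% and 8.66%, and for the AP-1 letters 7.95%, 6.35% and 6.04%. Both strands were searched, and motifs could overlap. Of the promoters printed above, the ISRE letters of Ifit3b lie at -188 to -179 and -154 to -145, and the κB letters of Il6 at -44 to -35, counted back from the start site. These shares describe the windows and were not tested.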

How the data were processed

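Peritoneal macrophage RNA was measured on 12 one-colour arrays in 4 groups of 3. The authors deposited 1 linear intensity per probe set, made with RMA (Affymetrix Expression Console 1.1) as the submitters' processing notes record. RMA in general makes array distributions alike, which would hide a shift common to most transcripts. The plan had assumed log2 values, so the deposited intensities were converted to log2 here, with no pseudocount. Intensities ran from 6.96 to 22642 and array medians from 110.4 to 118.7, and the number of arrays limits the precision. Intensities near the bottom understate fold changes, and intensities are compared only within a gene.

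GEO's platform annotation gave a single gene symbol to 21789 of 35556 probe sets, several to 1621 and none to 12146. Where 999 genes had several probe sets, the one brightest over the 12 arrays was kept, leaving 19938 genes. Gene coordinates are not printed because the labels name no build, and those of the promoters are RefSeq's in GRCm38.p6. In R 4.3.3, limma 3.58.1 (lmFit, eBayes, two-sided) fitted 4 group means over 12 arrays with 8 residual degrees of freedom. Benjamini-Hochberg adjustment ran over all 19938 genes, and an adjusted p under 0.05 was a call. Differences are knockout minus wild type in log2 units with standard errors. Tested on simulated data for the LPS comparison (19938 genes), the fit found 85% of changes of 2-fold and 98% of changes of 4-fold, and called 8 unchanged genes.

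The members and the 46 gene lists (645 of 701 entries measured) were chosen with earlier results of these data known. The 240 named genes are Nfkbiz and Ccl2, the 15 lowest and 15 highest called genes, the 10 with the lowest p, the 5 largest called with and without LPS, all IκBζ-dependent genes and up to 5 of each list with the largest difference. Predicted genes, small RNAs, olfactory and vomeronasal receptor genes and pseudogenes were passed over. Alternatives were leaving out each array, fitting only the 6 LPS arrays, other scalings, a minimum fold of 1.2, a replicate block, array weights, dropping dim genes, all probe sets and an intensity trend. Leaving out wild-type replicate 3 and knockout replicate 2 together was added after the data were seen.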

Additional observations from a re-analysis of the deposited data

Results flagged for a closer look

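The genotype difference itself differed between untreated and LPS-treated cells, by the interaction test in limma, for 27 of the named genes. For 14 of these the call was kept when any 1 of the 12 arrays was left out. A negative value means that the knockout-minus-wild-type difference was lower with LPS than without it. Among the 14 the negative values were Csf2 -4.78, Lcn2 -3.24, Lrrc25 -3.12, Tpbg -2.61, Slc11a2 -2.44, Sh3bp5 -1.85, P4ha2 -1.85, Mylip -1.73, Clec4a1 -1.71, E2f5 -1.44 and Rac2 -1.32. The positive values were Clic5 2.29, Bmp2 2.05 and Mertk 1.27.

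The other calls were each lost when some single array was left out. Il12b (-1.29) was lost in 2 of the 12 fits, and Psma6, a proteasome subunit (-0.76), in 5. Slc7a7 (0.78) was lost in 7 of them, and Klf4 (1.33) and Ccne1 (1.84) in 8 each. Gja1 (-3.03), Vcam1 (2.82), Rnf225 (2.16), Tyms (-1.06) and the G-CSF receptor Csf3r (-0.85) were lost in 9 each. Edn1 (-1.58) and Irak3 (-0.71) were lost in 10, and Batf (-0.96) in 11.

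Probe sets without a single gene symbol were outside the comparison. Of 13767 such probe sets, 212 were called with LPS, 75 higher and 137 lower in the knockout.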

How the results depend on the processing

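No called named gene changed sign under any alternative, and 53 of the 114 called named genes kept the call in every planned setting. The 1623 calls with LPS became 3296 with array weights, 492 with only the 6 LPS arrays, 300 with a minimum fold of 1.2, 712 to 2158 with 1 array left out, and 688 without wild-type replicate 3 and knockout replicate 2 together. Of the 275 genes past 2-fold, 174 were called from the 6 LPS arrays alone and 211 in that last setting. Calls among named genes fell to 66 (6 LPS arrays) and 64 (minimum fold). The 125 called list genes became 200 (array weights), 58 (6 LPS arrays), 76 to 157 (1 array left out) and 79 (both arrays left out). The 15 untreated calls became 23 (quantile), 25 (75th percentile), 46 (array weights), 30 (replicate block), 7 (minimum fold) and 6 to 23 (1 array left out). The 149 interaction calls became 667 (array weights), 36 (minimum fold) and 55 to 365 (1 array left out, fewest without knockout untreated replicate 1). The cause of these shifts was not tested, beyond the fewer arrays or the stricter threshold that some settings impose.

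Signs changed for 22 named genes that were not called. With 1 array left out their ranges were -0.29 to 1.134 (Tnfsf4), -0.082 to 0.768 (Marco), -2.015 to 0.117 (Trem1), -0.186 to 0.034 (Mgl2), -0.1 to 0.223 (Flt3), -0.356 to 0.165 (Cd79a), -0.228 to 0.718 (Ms4a1), -0.055 to 0.264 (Cd3g), -0.013 to 0.151 (Gzma), -0.212 to 0.04 (S100a8), -0.004 to 1.035 (Tpsb2), -0.091 to 0.005 (Ear6), -0.157 to 0.009 (Col3a1), -0.034 to 0.09 (Krt19) and -0.061 to 0.004 (Pdgfra). Without wild-type replicate 3 and knockout replicate 2 together, values were -0.28 (Tnfsf4), -0.114 (Marco), 0.087 (Ptger4), -0.015 (Atp6v0d2), 0.124 (Trem1), 0.051 (Timp1), 0.365 (Cd79a) and -0.023 (S100a9). Array weights gave -0.028 (Marco), 0.005 (Ptger4), 0.308 (Cd79a), -0.04 (Camp) and -0.063 (Krt19), quantile normalization 0.032 (S100a8) and 0.004 (Col1a1), and 75th percentile centring 0.011 (S100a8), 0.019 (Elane), 0.011 (Ear6) and 0.03 (Pdgfra).

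Same-numbered arrays of both genotypes with LPS did not deviate together (correlations of -0.06, -0.20 and -0.14). With 3 arrays per group these values cannot show whether such arrays share more than a number. Between same-numbered arrays without and with LPS the correlations were 0.32, 0.57 and 0.46 in the knockout. In wild type they were -0.07, 0.14 and 0.36, so replicate 3 there was above knockout replicate 1. These values bear on the interaction. With the replicate block, 1683 genes were called with LPS, 1451 of them in common, and 120 for the interaction.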

Other observations

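Further gene groups of the LPS comparison had few called members, and several counts rested on single arrays. Of 14 measured TNF superfamily ligands, 3 were higher and none was lower in the knockout, with a median of 0.35 (0.16 without knockout replicate 2). None was called without wild-type replicate 1 or 3, 1 without knockout replicate 1 or 3, and 5 without wild-type replicate 2. On all arrays 7 of these ligands had an unadjusted p under 0.05 in limma, against 4385 of all 19938 genes. Complement had 3 higher of 13, with a median of 0.54 (0.11 untreated). None of it was called higher without wild-type replicate 1, wild-type replicate 3 or knockout replicate 3, against 7 at an unadjusted p under 0.05 in limma on all arrays, and the alternative pathway factor Cfb was not called (0.74, adjusted p = 0.103). Of 18 genes of Toll-like receptors and their signalling, 3 were higher and 2 lower, against 0 and 0 with only the 6 LPS arrays. Tlr7, a receptor for single-stranded RNA, was at 2177, 2892 and 1208 in wild type and 3827, 4948 and 4171 in the knockout (1.13, adjusted p = 0.0153), and was not called with only the 6 LPS arrays. Of 14 costimulatory and checkpoint genes, 3 were lower and 1 higher, against 2 and 0 without wild-type replicate 1, wild-type replicate 3 or knockout replicate 3. Vsir, the checkpoint protein VISTA, was at 387.3, 364.3 and 516.9 against 224.9, 265 and 228.6 (-0.81 ± 0.12, adjusted p = 0.00211). Among 14 genes of prostaglandin and leukotriene biology, the prostaglandin E2 receptor Ptger2 was the 1 called, at 353.7, 306.7 and 406.7 against 199.3, 138.9 and 150.4 (-1.14 ± 0.19, adjusted p = 0.00443).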
